A study of Pseudotaxus chienii and Amentotaxus argotaenia and Torreya grandis with 9 samples.

Results

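Of the 42956 Trinity components in a shared transcript assembly of 3 trees of the yew family (Taxaceae), 153 were expressed in Pseudotaxus chienii and Torreya grandis and nearly missing in Amentotaxus argotaenia. A component is the set of gene-level features whose IDs differ only in the final gene number, and the 153 members hold 495 of the 88609 features. They were chosen by their measured levels. TPM, a length-normalised unit in which every library has the same total, was summed over each component, and the means of P. chienii and T. grandis each had to reach 10 TPM and at least 5% of the other, with an A. argotaenia mean under 5% of the lower of these. The low level in A. argotaenia is therefore the selection itself and no finding, and it was given no test.

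All libraries came from fresh twigs, wood and needles together, of plants aged 3 years kept at 25 ± 1°C with 12 h of light and 12 h of darkness. P. chienii is labelled as producing taxol, and T. grandis and A. argotaenia as not producing it, so the members were found in the producing species and in 1 non-producing species. Each species had 3 libraries, 9 in all. Whether the replicates were separate trees is not stated, so p-values reflect how these samples varied, and part or all of that may be technical. With 1 species carrying the taxol label, phenotype and species cannot be told apart.

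Yews and their relatives are conifers, and taxol is a diterpenoid that yews make from a plastid precursor through a long series of oxidations and acylations. Amentotaxus and Torreya are usually treated as sister genera, while Pseudotaxus is placed close to Taxus, the true yews. A de novo assembler such as Trinity joins overlapping reads into graphs without a genome and splits each graph into genes and isoforms. Counterparts of 1 gene in different species can end up as 1 feature, as several features of 1 component, or in separate components. No gene names come with the feature IDs and no sequences were used, so no member has a known function and the labelled tissue could not be checked against marker genes.

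Within a species the libraries correlated across features at a Pearson's r of 0.879 to 0.955 on log2(TPM + 1). P. chienii replicate 1, T. grandis replicate 3 and A. argotaenia replicate 2 were the least like their own species. These libraries also had the fewest features at 1 TPM or more in their species, 38038, 37701 and 41826 in the same order. Their deviations from the means of their species went together across the tested components, at r = 0.48 for P. chienii replicate 1 with T. grandis replicate 3, 0.37 for P. chienii replicate 1 with A. argotaenia replicate 2, and 0.39 for T. grandis replicate 3 with A. argotaenia replicate 2. The labels name no batch, and whether these 3 libraries shared a step was not tested. A fold change of a member printed here that moved by over 1.5 times, turned, or passed the limit of its adjusted p in either direction when the 3 were left out together is given both ways. TPM hides the number of reads, so the sequencing depth is not known and values carry no counting interval.

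The members held a small and steady part of the transcripts in the species that carried them. Their TPM summed to 15131, 17508 and 17924 in the P. chienii libraries and to 19213, 19599 and 21681 in the T. grandis libraries. In the A. argotaenia libraries the same components summed to 133.8, 142.2 and 145.3 TPM. The carrying libraries thus lay far above those of A. argotaenia, and all P. chienii sums lay below all T. grandis sums. This order rested on TRINITY_DN38938_c0, at 145.4, 299.9 and 475.9 TPM in the P. chienii libraries and 3101, 4506 and 5357 TPM in T. grandis. Without this member the sums of P. chienii and T. grandis overlapped. As means, the sums were 16854 ± 1507 TPM in P. chienii, 20164 ± 1328 TPM in T. grandis and 140.5 ± 5.96 TPM in A. argotaenia (SD, n = 3 each). The 8 members with the highest lower mean held between 54.0% and 60.5% of the P. chienii sums and between 54.6% and 55.9% of the T. grandis sums. Most members were at moderate levels: the lower of the P. chienii and T. grandis means had a median of 20.4 TPM, reached 50 TPM in 39 members, 100 TPM in 16 and 1000 TPM in 1. The median member was at 38.0, 34.8 and 35.3 TPM in the P. chienii libraries and at 29.7, 27.3 and 30.8 TPM in the T. grandis libraries, against 0.17, 0.14 and 0.22 TPM in the A. argotaenia libraries.

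**Figure D1:**
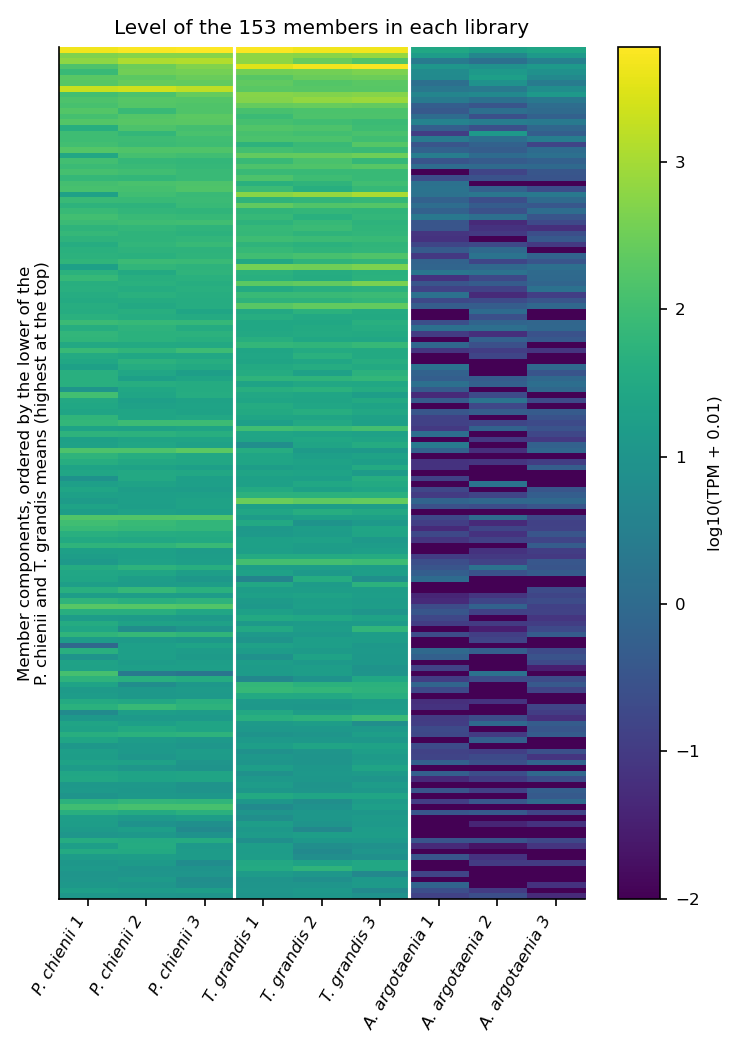
Level of each of the 153 members (rows, ordered by the lower of the P. chienii and T. grandis means) in each of the 9 libraries (columns), as log10(TPM + 0.01) in colour; white lines separate the species. The P. chienii and T. grandis columns are bright from top to bottom, and the darkest cells of the A. argotaenia columns are members listed at 0 TPM.

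The members were present in nearly every library of the carrying species. Of the 153, 152 were at 1 TPM or more in all 6 P. chienii and T. grandis libraries and 148 at 5 TPM or more. The exception at 1 TPM, TRINITY_DN42504_c0, was singled out after its values were seen and fell to 0.87 TPM in P. chienii replicate 1. TRINITY_DN36661_c0, singled out likewise, was at 116.0, 2.14 and 1.78 TPM in the P. chienii libraries. Its P. chienii mean of 39.99 TPM, and so its membership, rested on replicate 1. In all 153 the lowest of the 6 carrying libraries lay above the highest A. argotaenia library, which follows largely from the way the members were chosen.

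What remained in A. argotaenia was low. In 110 members all 3 A. argotaenia libraries were under 1 TPM, and in 16 all 3 were listed at 0. The other end was formed by 7 members with an A. argotaenia library at 10 TPM or more. As a share of the lower carrying mean, the A. argotaenia level had a median of 1.00%, with 77 members under 1% and 76 between 1% and 5%. The limit does not fall in a gap of the distribution, since 61 components that met the rest of the rule lay between 5% and 10%. Just inside it were TRINITY_DN35218_c0 at 4.88%, TRINITY_DN47013_c0 at 4.599% and TRINITY_DN46616_c2 at 4.59%. Just outside were TRINITY_DN36008_c0 at 5.09%, TRINITY_DN52200_c0 at 5.12% and TRINITY_DN39053_c0 at 5.13%.

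In 9 members, 1 A. argotaenia library of at least 1 TPM stood more than 5 times above both others. TRINITY_DN46616_c2 was such a member. It was at 96.5, 68.4 and 135.2 TPM in the P. chienii libraries and at 124.1, 106.4 and 132.5 TPM in the T. grandis libraries, and A. argotaenia had 0.10, 13.2 and 0.52 TPM. The A. argotaenia level of this member therefore came almost wholly from replicate 2, the library that stood apart in that species. Its leading feature in both carrying species, TRINITY_DN46616_c2_g1, was at 0.10, 0.30 and 0.52 TPM in the A. argotaenia libraries, so the 13.2 TPM of replicate 2 lay on the other feature of the component.

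**Figure D2:**
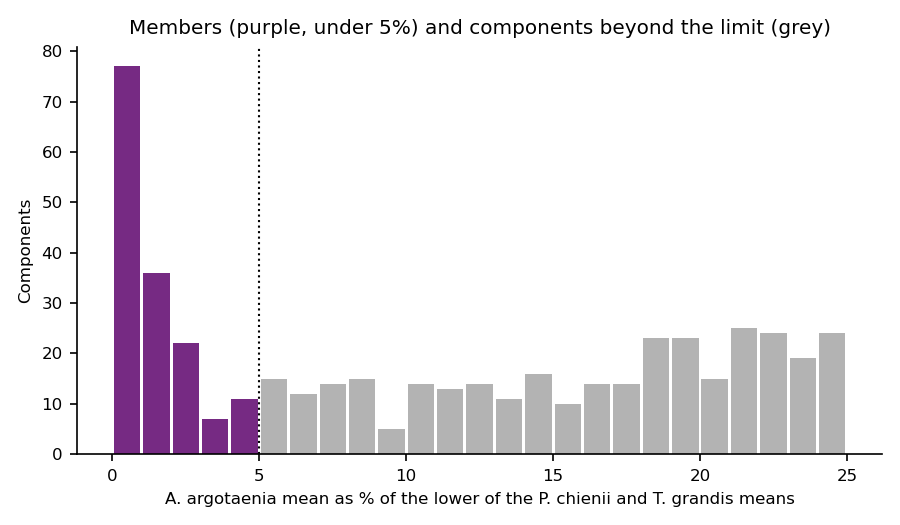
Number of components (vertical axis) by the A. argotaenia mean as a percentage of the lower of the P. chienii and T. grandis means (horizontal axis, bins of 1 percentage point), for components at 10 TPM or more in both and within 20-fold of each other. The 153 members (purple) are densest under 1%, with 77 components, and the counts beyond the 5% limit (grey) show no gap at the limit.

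The same rule with the species exchanged found 213 components in P. chienii and A. argotaenia with T. grandis under 5%, and 845 in A. argotaenia and T. grandis with P. chienii under 5%. The 153 members were thus the fewest of the 3 sets, and the order of the 3 counts was the same with each library left out in turn. The 3 sets share libraries, and the counts were given no test.

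By the lower of the carrying means, the highest member by far was TRINITY_DN37565_c3, a component of 4 features. It stood at 4459, 5442 and 6024 TPM in the P. chienii libraries and at 5438, 4569.9 and 4449 TPM in the T. grandis libraries, against 27.1, 19.5 and 25.6 TPM in A. argotaenia. The ranges of the carrying species overlapped, and the log2 fold change of P. chienii over T. grandis was 0.13 ± 0.18 SE, with a limma adjusted p of 0.625. It alone made up between 29.5% and 33.6% of the members' sum in P. chienii and between 20.5% and 28.3% in T. grandis. A single feature, TRINITY_DN37565_c3_g2, held 99.9% of the component in P. chienii and 99.6% in T. grandis. That feature was also at 22.5, 13.2 and 21.3 TPM in the A. argotaenia libraries.

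The next members in this order had a lower mean of at most 516.2 TPM. TRINITY_DN46292_c1 was at 467.3, 549.1 and 532.3 TPM in P. chienii and at 642.3, 569.3 and 727.5 TPM in T. grandis, against 16.0, 4.77 and 13.4 TPM in A. argotaenia. Its P. chienii libraries were all below its T. grandis libraries, but the log2 fold change of -0.32 ± 0.36 (SE) did not pass the test (adjusted p = 0.530, limma). The fit pooled the spread of all species, so this SE also holds the spread of the A. argotaenia libraries. TRINITY_DN40085_c2 was at 632.3, 1168 and 1309.7 TPM in P. chienii and at 614.3, 267.0 and 162.4 TPM in T. grandis, against 2.38, 1.37 and 3.22 TPM in A. argotaenia. The carrying ranges of this member nearly met, since T. grandis replicate 1 came close to P. chienii replicate 1. TRINITY_DN40775_c0 was at 82.5, 333.5 and 367.1 TPM in P. chienii and at 328.4, 362.6 and 444.3 TPM in T. grandis, against 6.09, 13.2 and 8.52 TPM in A. argotaenia. P. chienii replicate 1, the library that stood apart, was the low one, and the other P. chienii libraries lay within the T. grandis range. The log2 fold change of -0.79 (limma adjusted p of 0.263) became 0.02 (0.994) without the 3 libraries that stood apart.

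TRINITY_DN46409_c1 and TRINITY_DN43702_c0 had overlapping ranges in the carrying species. The first was at 199.8, 215.6 and 281.5 TPM in P. chienii and at 191.1, 286.7 and 300.7 TPM in T. grandis, against 5.83, 18.7 and 5.29 TPM in A. argotaenia. The second was at 182.6, 261.6 and 240.4 TPM in P. chienii and at 232.3, 167.6 and 197.9 TPM in T. grandis, against 1.27, 8.86 and 2.52 TPM in A. argotaenia. In both members A. argotaenia replicate 2 was the highest library of its species, and the A. argotaenia spread enters the pooled SE. The log2 fold changes of P. chienii over T. grandis were -0.15 ± 0.42 SE in the first (limma adjusted p of 0.863) and 0.19 ± 0.47 SE in the second (0.828), which does not show that the levels were alike. The first became 0.0733 (0.874) without the 3 libraries that stood apart. The 8 highest also hold TRINITY_DN38938_c0 and TRINITY_DN52529_c0, described with the differences between the carrying species.

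**Figure D3:**
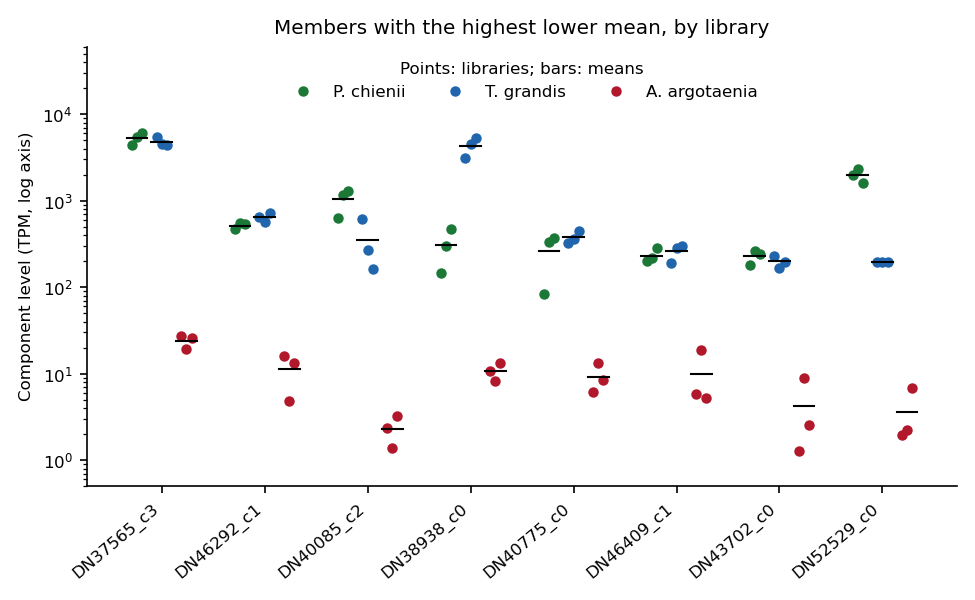
Level in TPM (log axis) of the 8 members with the highest lower mean, with P. chienii left, T. grandis in the middle and A. argotaenia right for each member; points are libraries and bars are means of 3. TRINITY_DN37565_c3 has means of 5308 TPM in P. chienii, against 4819 TPM in T. grandis, and the highest A. argotaenia point is at 27.1 TPM.

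In most members P. chienii and T. grandis did not use the same feature. Of the 126 members with several features, 21 were led by the same feature in both species and 105 by different features, where the leading feature is the one with the highest mean. The 27 members of a single feature share it by construction. The leading feature held a median of 93.1% of the component in P. chienii and 98.9% in T. grandis over the 126 members. The overlap of the feature shares, the sum over features of the smaller of the P. chienii and T. grandis shares, had a median of 1.49% over the 126 members and was under 5% in 88 of them. In 101 of the 126 no leading feature of any P. chienii library was the leading feature of any T. grandis library, so the split did not rest on 1 library.

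The same measure was taken in the 5921 components of several features that met the rule for P. chienii and T. grandis but had A. argotaenia at 5% or more. There 51.9% were led by the same feature, against 16.7% of the members, and the median overlap was 54.8%, against 1.49% in the members. The members' share was the lower one in each of the classes by number of features. With 2 features, 18.8% of 48 members and 67.3% of 1807 other components were led by the same feature, with 3 features 31.8% of 22 members and 54.5% of 1392 others, and with 4 or more, 8.93% of 56 members and 40.3% of 2722 others. The matching sets gave 17.9% of 184 components for P. chienii and A. argotaenia with T. grandis missing, and 35.9% of 579 for A. argotaenia and T. grandis with P. chienii missing. A low share was thus not particular to the members. These shares are descriptions without a test.

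**Figure D4:**
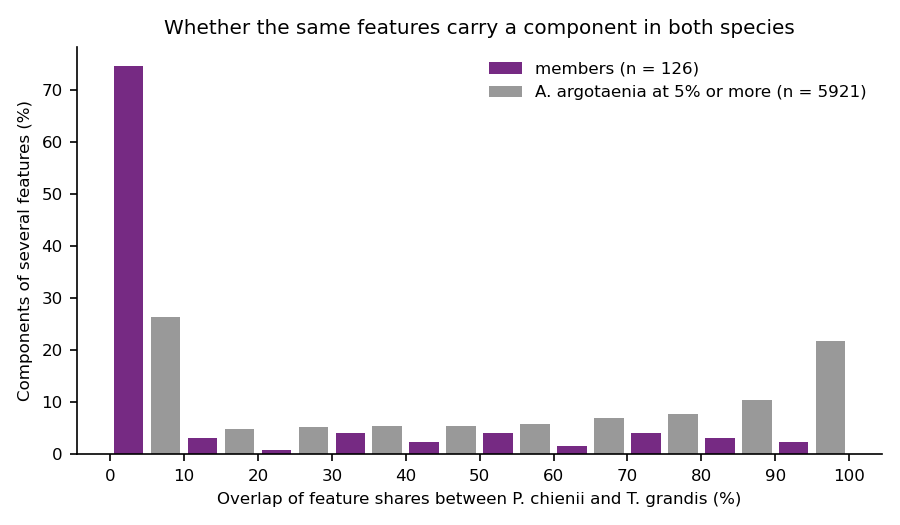
Share of components of several features (vertical axis, %) by the overlap of their feature shares between P. chienii and T. grandis (horizontal axis, %), for the 126 members (purple) and the 5921 components with A. argotaenia at 5% or more (grey). Of the members 74.6% lie under 10% overlap, against 26.3% of the other components.

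Single members show how complete the split was. In TRINITY_DN46292_c1, P. chienii was led by TRINITY_DN46292_c1_g1, at 466.6, 536.6 and 523.1 TPM in P. chienii against 0.69, 2.75 and 0.91 TPM in T. grandis. T. grandis was led by TRINITY_DN46292_c1_g4, at 0, 2.95 and 2.14 TPM in P. chienii and 618.5, 559.5 and 703.5 TPM in T. grandis. A. argotaenia had little of both, at 0.23 to 1.74 TPM for the first and 2.44 to 3.53 TPM for the second. TRINITY_DN40775_c0 behaved alike. Its feature TRINITY_DN40775_c0_g4 was at 64.1, 310.6 and 348.4 TPM in P. chienii and at most 0.82 TPM in T. grandis, and TRINITY_DN40775_c0_g2 at most 1.24 TPM in P. chienii and 315.5, 350.7 and 428.4 TPM in T. grandis.

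The split was less even in other members. In TRINITY_DN40085_c2 the P. chienii leader, TRINITY_DN40085_c2_g2, held 74.3% of the component in that species at 439.8, 985.4 and 885.9 TPM, against 2.79, 2.07 and 0.70 TPM in T. grandis. The T. grandis leader, TRINITY_DN40085_c2_g4, held 99.3% of it there at 610.5, 264.0 and 161.5 TPM, against 0.21, 2.17 and 0.93 TPM in P. chienii. In TRINITY_DN46409_c1 the P. chienii leader TRINITY_DN46409_c1_g3 was also measured elsewhere, at 199.8, 214.3 and 281.0 TPM in P. chienii, at 9.59, 15.1 and 15.3 TPM in T. grandis and 5.13, 18.1 and 4.55 TPM in A. argotaenia. It carried most of what A. argotaenia had of that component. TRINITY_DN40559_c3, with 10 features the member with the most, was led in P. chienii by TRINITY_DN40559_c3_g4 with 41.4% of the component and in T. grandis by TRINITY_DN40559_c3_g5 with 99.5%. TRINITY_DN41652_c0, with 9 features, was led by a feature with 32.3% of it in P. chienii and by another with 51.6% in T. grandis, and the second, TRINITY_DN41652_c0_g7, was at 17.5, 10.1 and 10.3 TPM in P. chienii and 10.2, 13.1 and 18.2 TPM in T. grandis.

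In the median, P. chienii and T. grandis each had only traces of the other's leading feature. A. argotaenia also had only traces of both, but that follows largely from the rule, which bounded its level over the whole component. Over the 105 members led by different features, the T. grandis leader was at a median of 0, 0.461% and 0.201% of its T. grandis mean in P. chienii replicates 1, 2 and 3, and at 0, 0 and 0.260% in the A. argotaenia libraries. The P. chienii leader was at 0.311%, 0.0975% and 0% of its P. chienii mean in T. grandis replicates 1, 2 and 3, and at 0, 0.0298% and 0.0659% in the A. argotaenia libraries. P. chienii replicate 1 and T. grandis replicate 3, which stood apart, were the lowest of their species here. Where these traces came from was not tested. Of the A. argotaenia level summed over these 105 members, 29.0% lay on the P. chienii leaders, 31.1% on the T. grandis leaders and 39.9% on other features.

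The 21 members of several features with a common leader include the highest one. Besides TRINITY_DN37565_c3 and TRINITY_DN38938_c0 they hold TRINITY_DN46616_c2, and their median overlap was 75.9%, with a range from 36.1% to 99.7%. Their lower carrying mean had a median of 24.9 TPM, against 18.9 TPM in the 105 members with different leaders and 18.1 TPM in the 27 members of a single feature. At the level of single features, 158 features met the same rule on their own. Such a feature was present in 50 of the 153 members. In the other 103 the pattern therefore appears only once the component is summed.

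Among the 16 members listed at 0 TPM in every A. argotaenia library, the lower carrying mean ran from 10.4 to 30.2 TPM, with a median of 11.5 TPM. Over all members the median was 20.4 TPM. The highest of the 16 was TRINITY_DN36963_c0, at 27.4, 51.5 and 39.2 TPM in P. chienii and 23.9, 26.1 and 40.7 TPM in T. grandis. The overlap of these ranges rested on T. grandis replicate 3 alone. Without the 3 libraries that stood apart the log2 fold change of 0.36 (limma adjusted p of 0.314) became 0.82 (0.0147), still under the 2-fold limit. TRINITY_DN38076_c2 was at 57.0, 40.6 and 28.7 TPM in P. chienii and 25.0, 18.6 and 20.9 TPM in T. grandis, without overlap, but the log2 fold change was under the 2-fold limit, at 0.89 ± 0.25 SE, with a limma adjusted p of 0.0134. It was 0.64 (0.0820) without the 3 libraries that stood apart, and it passed the limit without P. chienii replicate 3, at 1.14, and without T. grandis replicate 1, at 1.0013. TRINITY_DN52827_c0, a single feature, was at 25.9, 30.4 and 29.2 TPM in P. chienii and 23.7, 22.5 and 14.9 TPM in T. grandis. Without a read count, a value of 0 gives no upper limit, and no fold against A. argotaenia was computed for these members.

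P. chienii, the taxol producer, was then set against T. grandis within the members. This contrast is the one whose direction the rule left free, although it held the means within 20-fold, so the calls are a description. A component was called at a limma adjusted p under 0.05 (Benjamini-Hochberg over the 39423 tested components) and at least 2-fold on the log2(TPM + 1) scale, which understates the change of low components. All 153 members entered the test, each through the minimum that selected it. Of them 55 were called, 30 higher and 25 lower in P. chienii. Over all tested components 48.4% were called, 26.5% higher and 21.9% lower. Over the 7961 components at 10 TPM or more in both species and within 20-fold, 33.0% were called, 17.3% higher and 15.7% lower. The members' 35.9% lies near the 33.0% and is no result about them. At 4-fold or more 20 members were called, 13.1%, against 31.7% of all tested components and 8.78% of the 7961. Their median log2 fold change was 0.07, against 0.00 over all tested components and 0.03 over the 7961. It was -0.01 after trimmed-mean scaling, so no lean to either species is read from it.

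The members higher in P. chienii had log2 fold changes from 1.03 to 3.45. At the top stood TRINITY_DN53689_c1, at 194.1, 176.6 and 162.9 TPM in P. chienii and 11.8, 18.2 and 16.9 TPM in T. grandis, against 0.21, 0.64 and 0.12 TPM in A. argotaenia. Its log2 fold change was 3.45 ± 0.21 SE, with a limma adjusted p of 1.75e-06. Its P. chienii leader, TRINITY_DN53689_c1_g1, was at most 0.69 TPM in T. grandis. The T. grandis leader, TRINITY_DN53689_c1_g5, was at 13.5, 17.5 and 17.3 TPM in P. chienii and at 11.4, 17.4 and 16.7 TPM in T. grandis, at overlapping levels. The excess of P. chienii in this component thus lay on features that T. grandis hardly had.

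TRINITY_DN36997_c0, a single feature, was at 99.6, 127.9 and 122.5 TPM in P. chienii and 5.91, 8.61 and 18.5 TPM in T. grandis, and was listed at 0 in all 3 A. argotaenia libraries. Its log2 fold change was 3.42 ± 0.34 SE, with a limma adjusted p of 3.20e-05, and T. grandis replicate 3, the library that stood apart, was its highest in that species. TRINITY_DN52529_c0 was at 2003, 2301 and 1612 TPM in P. chienii and 197.2, 194.4 and 194.2 TPM in T. grandis, against 1.96, 2.21 and 6.77 TPM in A. argotaenia. Its log2 fold change was 3.31 ± 0.34 SE, with a limma adjusted p of 3.72e-05. Of its 2 features, TRINITY_DN52529_c0_g1 was at 76.0, 68.6 and 66.1 TPM in P. chienii and 191.6, 189.2 and 191.0 TPM in T. grandis, while TRINITY_DN52529_c0_g2 held 96.4% of the component in P. chienii. The features of this component therefore differed between the species in opposite directions. TRINITY_DN52873_c2 was at 164.1, 163.9 and 171.7 TPM in P. chienii and 15.7, 18.8 and 19.6 TPM in T. grandis, and the log2 fold change was 3.14 ± 0.22 SE, with a limma adjusted p of 3.63e-06. All 4 of these members had P. chienii libraries well above every T. grandis library.

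TRINITY_DN40085_c2, among the highest members, was called higher in P. chienii, and the log2 fold change was 1.72 ± 0.49 SE, with a limma adjusted p of 0.0145. The call was lost without P. chienii replicate 2 (adjusted p = 0.0533), without P. chienii replicate 3 (0.0604) and in a limma fit of these 2 species alone (0.0559). TRINITY_DN35218_c0 and TRINITY_DN40559_c3 were called higher at the fold limit, both with a log2 fold change of 1.03. The first fell to 0.97 without P. chienii replicate 1 and to 0.85 without T. grandis replicate 1, and both members to 0.95 after trimmed-mean scaling. The second lost its call without any 1 of the P. chienii libraries and without T. grandis replicate 2, with adjusted p between 0.0504 and 0.0938 by limma, and without the 3 libraries that stood apart (0.108). With a pseudocount of 0.1 TPM both lost their call, at adjusted p of 0.0504 for the first and 0.147 for the second, and with 5 TPM both fell under 2-fold. Quantile normalization brought the first to 0.88.

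The members lower in P. chienii had log2 fold changes from -3.93 to -1.002. TRINITY_DN38938_c0 was at 145.4, 299.9 and 475.9 TPM in P. chienii and 3101, 4506 and 5357 TPM in T. grandis, against 10.7, 8.31 and 13.3 TPM in A. argotaenia. Its log2 fold change was -3.93 ± 0.41 SE, with a limma adjusted p of 4.29e-05, and the same feature, TRINITY_DN38938_c0_g1, led it in both species. TRINITY_DN40798_c0 was at 19.98, 99.3 and 80.7 TPM in P. chienii and 570.4, 752.9 and 1134 TPM in T. grandis, and the log2 fold change was -3.82 ± 0.54 SE, with a limma adjusted p of 2.96e-04. In both members P. chienii replicate 1 was the lowest of its species and T. grandis replicate 3 the highest of its own. Without the 3 libraries that stood apart the log2 fold changes were -3.30 in TRINITY_DN38938_c0 and -2.86 in TRINITY_DN40798_c0, and the second was -3.12 without P. chienii replicate 1 alone. Both stayed called.

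TRINITY_DN47013_c0 was at 14.6, 18.2 and 21.8 TPM in P. chienii and 295.7, 229.1 and 261.1 TPM in T. grandis, and the log2 fold change was -3.79 ± 0.17 SE, with a limma adjusted p of 5.54e-07. TRINITY_DN43473_c0 was at 19.2, 62.4 and 54.6 TPM in P. chienii and 380.5, 337.1 and 427.1 TPM in T. grandis, and the log2 fold change was -3.20 ± 0.39 SE, with a limma adjusted p of 1.10e-04. It was -2.60 without the 3 libraries that stood apart and stayed called. In these 2 and in TRINITY_DN40798_c0 the species were led by different features. The T. grandis leader of TRINITY_DN47013_c0 was at 0.27, 1.53 and 1.46 TPM in P. chienii, so the level of this component lay on separate features in the 2 species.

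**Figure D5:**
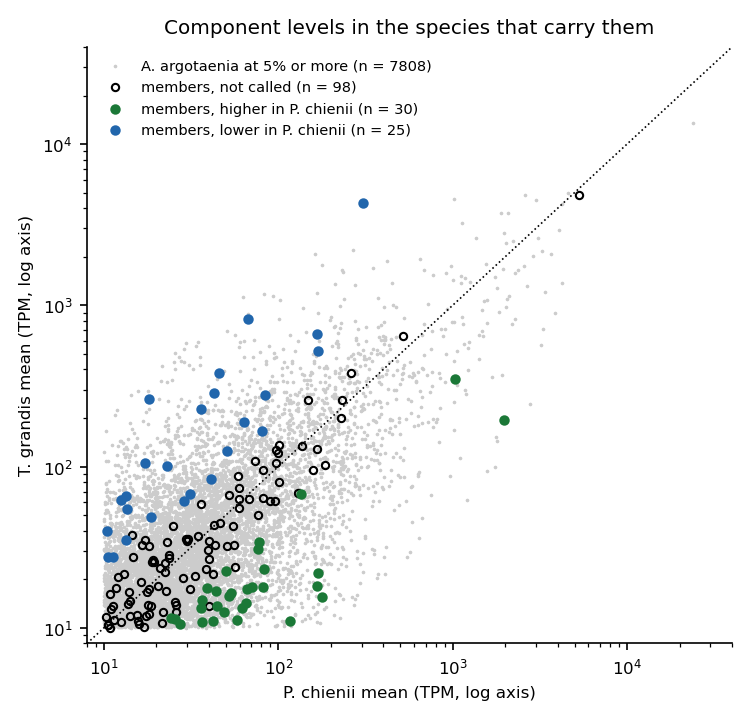
Mean level in P. chienii (horizontal, TPM, log axis) and in T. grandis (vertical, TPM, log axis) of components at 10 TPM or more in both and within 20-fold of each other; the dotted line marks equal levels. Members are drawn as open circles (98 not called), green points (30 higher in P. chienii) and blue points (25 lower in P. chienii) over the 7808 components with A. argotaenia at 5% or more (grey).

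By the libraries alone, 50 members had every P. chienii library above every T. grandis library and 37 the reverse, 87 in all. Without a test, such separation was found in 61.1% of all tested components and in 67.6% of those at 10 TPM or more in both species and within 20-fold. Of the 105 members led by different features 41 were called by limma, 39.0%, with 23 higher and 18 lower in P. chienii. Of the 48 with the same leader 14 were called, 29.2%, among them 8 of the 27 members of a single feature. These shares lie on either side of the 33.0% called among the 7961 and both under the 48.4% of all tested components, and their difference was not tested.

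As a description without a test, the members varied more between libraries than other components of the carrying species. Their coefficient of variation over the 3 libraries had a median of 16.0% in P. chienii and 18.8% in T. grandis, against 13.2% and 12.6% in the 7808 components with A. argotaenia at 5% or more. These sets were not matched for level, so the difference is not read as a trait of the members. P. chienii replicate 1 was under 0.5 times both other P. chienii libraries in 10 members, 6.54% of them, against 3.01% of the 13298 components at 10 TPM or more in P. chienii. It was over 2 times both others in 6 members, 3.92%, against 4.60% of these components. TRINITY_DN38938_c0, TRINITY_DN40775_c0, TRINITY_DN40798_c0 and TRINITY_DN43473_c0 are 4 of these 10. T. grandis replicate 3 was over 2 times both others in 5 members, 3.27%, close to the 3.66% of 12058 components at 10 TPM or more in T. grandis.

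A component name also carries a DN number, which several components can share. The 153 members all have different DN numbers, and 50 of them, 32.7%, share theirs with a component outside the members. Among the 7808 components with A. argotaenia at 5% or more, 21.2% did so. In 16 members, 10.5%, such another component was at 10 TPM or more in A. argotaenia, and in 8 it reached the member's own lower carrying mean. The share with 10 TPM or more was 5.74% among the 7808. Counted only over components that share their DN number with another, it was 16 of 50 members and 448 of 1659 others. When TPM was summed over the DN number in place of the component, 121 of the 153 members still met the rule.

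The clearest case was TRINITY_DN51058_c1. It was at 16.2, 11.1 and 14.96 TPM in P. chienii and 11.6, 9.98 and 13.9 TPM in T. grandis, against 0.14, 0.19 and 0.07 TPM in A. argotaenia. TRINITY_DN51058_c2 showed another order, at 5.56, 7.28 and 3.63 TPM in P. chienii and 24.2, 26.3 and 18.1 TPM in T. grandis, against 237.9, 306.4 and 278.1 TPM in A. argotaenia. For TRINITY_DN52529_c0 the other component, TRINITY_DN52529_c1, was at 257.8, 328.0 and 236.4 TPM in P. chienii, at 72.6, 69.5 and 86.0 TPM in T. grandis and 126.3, 145.2 and 136.8 TPM in A. argotaenia. For TRINITY_DN53689_c1 it was TRINITY_DN53689_c0, at 0.84, 3.96 and 2.45 TPM in P. chienii, at 64.3, 74.4 and 84.3 TPM in T. grandis and 75.4, 81.9 and 98.7 TPM in A. argotaenia. Whether these components hold counterparts of the members was not tested, since no sequences were compared.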

How the data were processed

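The deposited values are TPM with 2 decimals, 1 table per library over the same 88609 features. That unit is inferred: library totals lie between 999890 and 999947, and the file headers give no unit. Trinity is named per the labels; the quantifier, versions and filters are not stated there. Depth per library is unknown.

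TPM was summed over components and averaged per species, taken from the sample titles (Python 3.11.15, pandas 2.3.3, numpy 2.4.6, matplotlib 3.10.9). A model with an intensity trend (limma 3.58.1, R 4.3.3) was fitted to log2(TPM + 1) of the 39423 components at 1 TPM or more in at least 3 libraries, with species as the only term and all 9 libraries; tests were two-sided. The spread was pooled over all species, so the A. argotaenia libraries also entered the SE of P. chienii over T. grandis. The step was tested on simulated data. Members, lists and tests were chosen with earlier results of these data known. Named members are the extremes, under a written rule, in lower mean, fold change, A. argotaenia share, number of features, leading feature and level of a component with the same DN number. Alternatives were other limits, pseudocounts, filters, scalings, summed units and fits, and each library left out.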

Additional observations from a re-analysis of the deposited data

How the results depend on the processing

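The 153 members numbered 285 with a minimum mean of 5 TPM and 77 with 20 TPM. The sets with T. grandis or P. chienii missing numbered 412 and 1389 at 5 TPM, and 109 and 450 at 20 TPM. A limit of 2% left 141 with T. grandis missing, and single features gave 1857 with P. chienii missing. The members stayed within 1.5 times under a limit of 2% (113) or 10% (214), medians (166), trimmed-mean scaling (149), single features (158) and DN numbers (144). With each library left out they numbered 150 to 174, and 120 of the 153 were kept every time; without the 3 libraries that stood apart, a choice made after seeing the data, there were 163, of which 136 were members. A minimum of 4-fold left 20 of the 55 members called in P. chienii over T. grandis, which is 13.1% of the members, against 31.7% of all tested components and 8.78% of the 7961. No other setting moved that count by over 1.5 times, leaving out a library gave 53 to 57, and 40 kept their call at every setting but the 4-fold limit. None of the 55 changed direction. With the replicate number as a block 55 were called, all of them the same; same-numbered P. chienii and T. grandis libraries had deviations that correlated at r = -0.36, 0.24 and -0.28, so the numbers do not pair them. Of the 462 fold changes of named members under alternatives, 436 kept direction and call, 20 lost a call, 4 gained one, and 2 turned, both without the 3 libraries: TRINITY_DN40775_c0 to 0.02 and TRINITY_DN46409_c1 to 0.0733, neither called. Counting only members of several features left 21 with the same leader, and leaving out a library gave 45 to 49 of 153. Under 1 TPM in place of 0 gave 110 members in A. argotaenia, and leaving out a library 21 to 24. The members with a like-numbered component in A. argotaenia were 32 at 1 TPM, 8 at the lower carrying mean and 14 to 17 with a library left out. The median log2 fold change ran from 0.07 to 0.14 with a library left out. The cause of these moves was not tested. With unknown depth, a listed 0 in A. argotaenia cannot be told from a low level, and values near 0 carry no counting interval. In 14 members all 3 A. argotaenia libraries were at 1 TPM or more.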
